A study of Rattus norvegicus with 24 samples.

Results

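The genes described here are 8 that glucocorticoids are known to induce, namely Zbtb16, Fkbp5, Tsc22d3, Per1, Klf9, Sgk1, Dusp1 and Ddit4, out of 16881 gene symbols counted in rat lung. They were found by symbol in the deposited count files, and all 8 were present. They had been selected on these same counts, because Zbtb16 and Fkbp5 were higher with dose and Dusp1 lower, so their differences from control and their slopes with dose are a description, with no test. Per1 had 0 reads in 17 of 24 libraries and at most 5 in any, fell below the filter on low counts, and was not tested, which left 7 of the 8 genes in the fit.

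The study measured the lung transcriptome of wild-type rats under repeated exposure to whole-cigarette smoke condensate (WCSC), the collected particulate and condensable part of the smoke of whole cigarettes. There were 24 libraries in 8 groups of 3, a control and WCSC at 5, 10 and 20 mg/mL, each at 12 days and at 6 days. All 8 groups shared the genotype, the tissue and a 3′ end RNA-seq kit (Lexogen QuantSeq), which reads one end of each polyadenylated transcript. The labels used here state no strain, age, sex, route of exposure or hour of collection. They also do not say if replicates came from different rats, so the p-values below measure the spread between these libraries.

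Glucocorticoids bind the glucocorticoid receptor, a ligand-activated transcription factor that chaperones hold in the cytoplasm and that moves to the nucleus, where it binds response elements and switches on target genes within hours. In the lung the hormone is anti-inflammatory and matures the alveolar epithelium. The targets fall into several roles. Zbtb16 (PLZF) and Klf9 encode transcription factors, Fkbp5 encodes a co-chaperone that lowers the receptor's affinity for hormone and so forms a negative feedback loop, Tsc22d3 (GILZ) encodes a mediator of the anti-inflammatory action, Dusp1 encodes a phosphatase that switches off MAP kinases, Sgk1 encodes a kinase that controls ion transport, Ddit4 (REDD1) encodes an inhibitor of mTORC1, and Per1 encodes a core repressor of the circadian clock. Several of them also answer to other signals, among them mitogens, hypoxia and the time of day.

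Tsc22d3, Klf9 and Dusp1 varied together between libraries of the same group, as described below, so their promoter windows are shown here beside that of Fkbp5. RefSeq promoter windows (build GRCr8, not the rn6 build named for the counts) matched 7 of the 8 genes and gave 11 windows, since Tsc22d3 and Sgk1 each had 3 annotated starts. Zbtb16 had no window there, so its promoter was not searched. Each line gives the 250 bases before the start, 5′ to 3′ on the gene's own strand. Capitals mark matches, on either strand, to the cyclic AMP response element core TGACG and to the E-box CACGTG. Of the 3 windows of Tsc22d3, that of the third start is shown, the only 1 with a match.
Dusp1: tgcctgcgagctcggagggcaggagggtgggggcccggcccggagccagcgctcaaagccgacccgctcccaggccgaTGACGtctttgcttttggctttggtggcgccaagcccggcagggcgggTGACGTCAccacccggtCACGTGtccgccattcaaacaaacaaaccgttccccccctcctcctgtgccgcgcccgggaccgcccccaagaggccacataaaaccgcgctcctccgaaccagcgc
Klf9: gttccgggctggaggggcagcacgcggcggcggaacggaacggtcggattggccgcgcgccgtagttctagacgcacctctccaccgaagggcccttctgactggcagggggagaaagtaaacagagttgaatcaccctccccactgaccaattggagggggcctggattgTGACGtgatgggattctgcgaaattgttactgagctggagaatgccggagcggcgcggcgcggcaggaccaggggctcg
Tsc22d3: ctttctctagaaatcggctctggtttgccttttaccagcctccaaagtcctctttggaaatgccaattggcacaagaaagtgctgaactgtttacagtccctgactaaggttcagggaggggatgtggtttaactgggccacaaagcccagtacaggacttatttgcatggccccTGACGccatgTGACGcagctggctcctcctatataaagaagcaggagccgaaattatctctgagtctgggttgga
Fkbp5: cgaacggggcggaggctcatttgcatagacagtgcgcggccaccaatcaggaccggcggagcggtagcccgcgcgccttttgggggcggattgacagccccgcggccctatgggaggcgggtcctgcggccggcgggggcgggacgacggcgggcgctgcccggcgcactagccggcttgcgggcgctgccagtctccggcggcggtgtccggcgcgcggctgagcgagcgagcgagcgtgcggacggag
The Dusp1 window lies at chr10:17184603-17184852 on the plus strand, that of Klf9 at chr1:230126396-230126645 on the plus strand, that of the third Tsc22d3 start at chrX:109010035-109010284 on the minus strand and that of Fkbp5 at chr20:6543556-6543805 on the minus strand.

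TGACG stood in 3 of the 11 windows, those of Dusp1, Klf9 and the third start of Tsc22d3, against 18.2% of 33469 RefSeq windows of the same length. Dusp1 held it 3 times, at 172 and 124 bases before the start on the gene's strand and at 121 bases on the other strand, and the last pair overlap in 1 palindrome. The E-box stood in the Dusp1 window alone, 107 bases before the start, against 5.59% of all windows. The glucocorticoid response half-site AGAACA stood in 0 of the 11 windows, against 17.5% of all windows, and the palindromic element (GNACA, 3 bases, TGTNC) also in 0, against 0.373%. These counts say only which letters the 250 bases hold.

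Library totals ranged over 4795667 to 11109713 counts with a median of 6840815. Alveolar type II markers were high in every library (Sftpc at 3249 to 14251 CPM, counts per 1000000 reads after TMM scaling), and of 96 marker genes of 14 cell types and tissues only Marco, of the macrophage list, was at 0 in all 24 libraries. The library of 20 mg/mL at day 12, replicate 2, stood apart, with 3148 CPM summed over 10 heart muscle genes, against at most 205 CPM in any other library, and with the lowest alveolar type II sum, 7358 CPM. A second difference ran across libraries. At an equal depth of 4758014 reads, 8 libraries showed 11454 to 11751 genes and the other 16 showed 11938 to 12476. Of these 8, 5 are libraries of WCSC at day 6, which leaves 1 library each of 5 and 10 mg/mL at day 6 among the 16.

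Zbtb16 was the gene with the largest difference from control. At day 12 its level was 6.06, 3.43 and 4.72 CPM in the control libraries, 1.91, 2.56 and 8.16 CPM with 5 mg/mL, 26.4, 27.4 and 21.4 CPM with 10 mg/mL and 96.0, 34.1 and 69.1 CPM with 20 mg/mL. At day 6 it was 0.893, 8.54 and 6.47 CPM in control, 0.491, 3.00 and 49.3 CPM with 5 mg/mL, 18.5, 27.7 and 53.3 CPM with 10 mg/mL and 65.2, 63.4 and 64.6 CPM with 20 mg/mL. All 12 libraries of 10 and 20 mg/mL, at 18.5 to 96.0 CPM, lay above all 6 controls, at 0.893 to 8.54 CPM.

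With 20 mg/mL the mean of Zbtb16 was 14.0 times the control mean at day 12 and 12.1 times at day 6. On the log2 scale the differences were 3.81 (SE 0.97) at day 12 and 3.60 (SE 0.94) at day 6, and with 10 mg/mL they were 2.40 (SE 0.93) at day 12 and 2.65 (SE 0.92) at day 6. With 5 mg/mL they were -0.17 (SE 0.97) at day 12 and 1.70 (SE 0.91) at day 6, and the day 6 value rested on replicate 3, without which it was -1.66, while the day 12 value was -1.08 without its replicate 3. That replicate and control replicate 2 of day 6 were among the libraries with the most detected genes (12412 and 12409), while 5 mg/mL replicate 1 and control replicate 1 of day 6, where Zbtb16 was lowest, were among those with the fewest (11590 and 11545). With that number as a covariate, the difference at 5 mg/mL and day 6 was 1.59. In the 16 libraries with more genes, the Zbtb16 difference at 20 mg/mL was 3.98 at day 12 and 3.11 at day 6. In bulk tissue, fewer cells that make a transcript and less of it per cell cannot be told apart, here and for every gene below.

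In order of mean level, Zbtb16 stood at 66.4 ± 31.0 CPM with 20 mg/mL at day 12 and 64.4 ± 0.925 CPM with 20 mg/mL at day 6 (SD, n = 3 each), then 33.2 ± 18.01 CPM with 10 mg/mL at day 6 and 25.04 ± 3.20 CPM with 10 mg/mL at day 12. The 5 mg/mL group of day 6 followed at 17.6 ± 27.5 CPM, and 3 groups lay between 4.21 and 5.30 CPM, namely both controls and 5 mg/mL at day 12. Of the 7 neighbouring pairs in this order, the lower 20 mg/mL group and the upper 10 mg/mL group alone did not overlap.

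Fkbp5 had a mean above control at every dose and day. At day 12 it was at 31.7, 26.5 and 22.5 CPM in control, 24.7, 38.3 and 52.8 CPM with 5 mg/mL, 52.7, 34.0 and 67.6 CPM with 10 mg/mL and 138, 44.5 and 101 CPM with 20 mg/mL. The day 6 values of Fkbp5 were 27.8, 27.0 and 48.1 CPM in control, 34.1, 47.0 and 97.9 CPM with 5 mg/mL, 62.9, 49.3 and 63.8 CPM with 10 mg/mL and 77.6, 60.1 and 76.9 CPM with 20 mg/mL. The groups of 10 and 20 mg/mL did not overlap the control of their day, and those of 5 mg/mL did. At day 6 the mean with 5 mg/mL (59.6 CPM) was above that with 10 mg/mL (58.7 CPM). Without replicate 3 the log2 difference with 5 mg/mL at day 6 was 0.24, against 0.79 in all libraries. With 20 mg/mL the mean was 3.50 times control at day 12 and 2.09 times at day 6 (log2 differences 1.81, SE 0.40, and 1.06, SE 0.39).

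In the order of group means of Fkbp5, 94.3 ± 47.0 CPM with 20 mg/mL at day 12 was highest and 26.9 ± 4.64 CPM in the control of day 12 lowest (SD, n = 3 each), and every pair of neighbours overlapped. The lowest of the 20 mg/mL libraries of day 12, for Fkbp5 and for Zbtb16, was the one rich in heart muscle transcripts. Without that library the log2 difference at day 12 was 2.15 for Fkbp5 and 4.12 for Zbtb16.

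**Figure D1:**
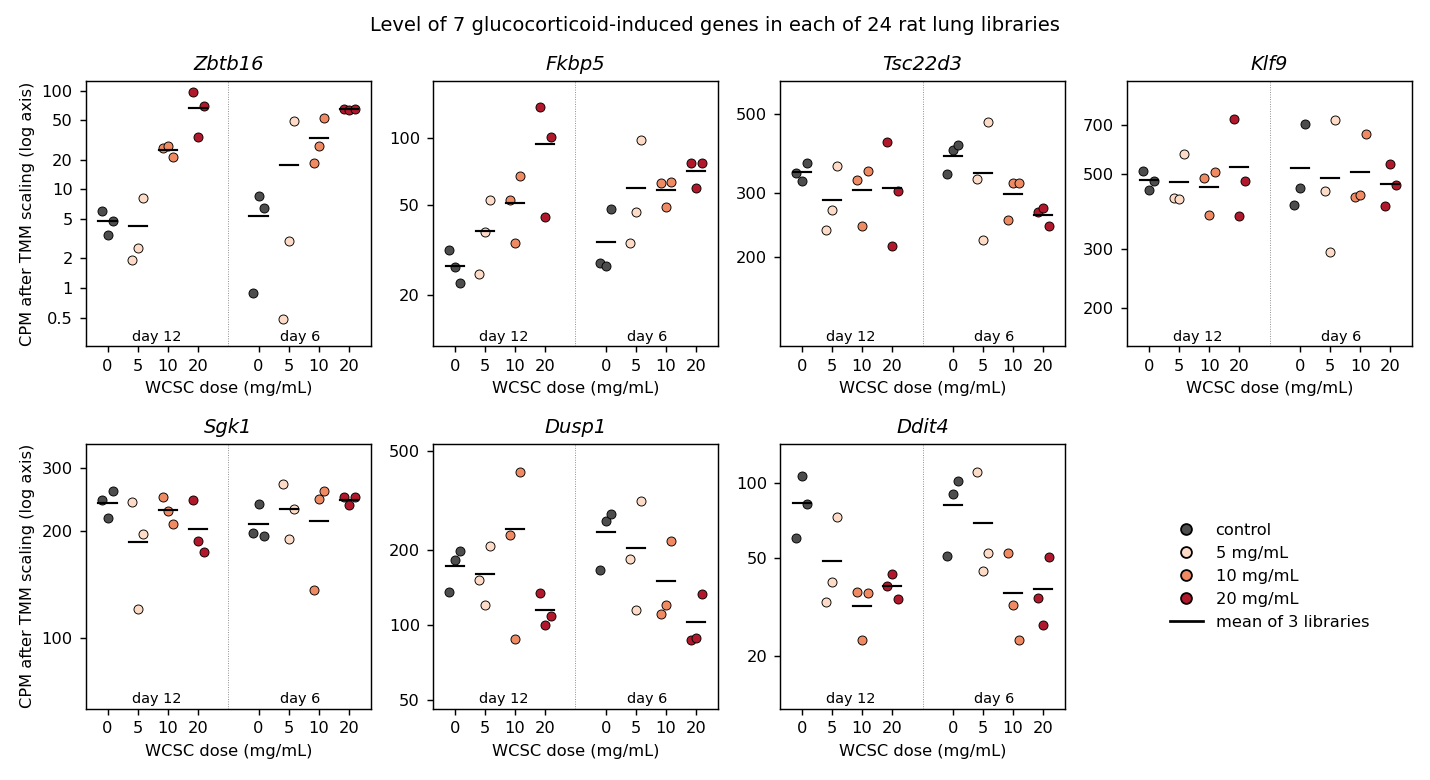
Level of the 7 tested genes in each library (points, CPM after TMM scaling, log axis with a different range in each panel), with day 12 on the left and day 6 on the right of each panel and the WCSC dose along the axis. Bars are means of 3 libraries. Zbtb16 in all 12 libraries of 10 and 20 mg/mL lies at 18.5 CPM or more, above all 6 controls, while Ddit4 and Dusp1 with 20 mg/mL lie below the controls of their day.

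Ddit4, the mTORC1 inhibitor, was lower with WCSC. At day 12 it was at 60.2, 107 and 82.2 CPM in control, 32.9, 39.9 and 72.7 CPM with 5 mg/mL, 36.2, 23.2 and 35.8 CPM with 10 mg/mL and 38.2, 42.8 and 33.8 CPM with 20 mg/mL. The day 6 values of Ddit4 were 50.9, 90.5 and 103 CPM in control, 111, 44.3 and 52.0 CPM with 5 mg/mL, 52.0, 32.2 and 23.1 CPM with 10 mg/mL and 34.3, 26.7 and 50.4 CPM with 20 mg/mL. Of the 12 libraries of 10 and 20 mg/mL, 11 lay below all 6 controls. The log2 difference was -1.12 (SE 0.38) at day 12 and -1.13 (SE 0.38) at day 6 with 20 mg/mL, and -1.39 (SE 0.38) at day 12 and -1.18 (SE 0.38) at day 6 with 10 mg/mL. The means of the 10 and 20 mg/mL groups, 31.7 to 38.3 CPM, lay below those of the other 4 groups, 48.5 to 83.1 CPM, and all neighbours in the order overlapped.

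Dusp1, the MAP kinase phosphatase, was lower with 20 mg/mL and scattered widely at the lower doses. At day 12 it was at 136, 183 and 198 CPM in control, 151, 120.4 and 208 CPM with 5 mg/mL, 231, 87.7 and 413 CPM with 10 mg/mL and 135, 100.1 and 109 CPM with 20 mg/mL. The day 6 values of Dusp1 were 167, 263 and 280.2 CPM in control, 185, 114 and 316 CPM with 5 mg/mL, 110.3, 121 and 218 CPM with 10 mg/mL and 87.5, 88.5 and 133 CPM with 20 mg/mL. The 20 mg/mL libraries lay below the control of their day at both days, at day 12 by a margin of about 1 CPM. The log2 difference with 20 mg/mL was -0.59 (SE 0.41) at day 12 and -1.20 (SE 0.41) at day 6. With 10 mg/mL it was 0.50 (SE 0.41) at day 12 and -0.66 (SE 0.41) at day 6, and the day 12 value was -0.11 without replicate 3, the library at 413 CPM.

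Tsc22d3, the anti-inflammatory mediator, lay below control with 10 and with 20 mg/mL at day 6 and overlapped it in the other 4 groups. At day 12 it was at 341, 326 and 366 CPM in control, 237, 269 and 359 CPM with 5 mg/mL, 327, 244 and 347 CPM with 10 mg/mL and 416, 214 and 304 CPM with 20 mg/mL. At day 6 it was at 339.9, 396 and 408 CPM in control, 328, 222 and 474 CPM with 5 mg/mL, 253, 319.7 and 321 CPM with 10 mg/mL and 266, 273 and 244 CPM with 20 mg/mL. The log2 difference with 20 mg/mL was -0.14 (SE 0.25) at day 12 and -0.55 (SE 0.25) at day 6.

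Klf9 and Sgk1 overlapped their controls at every dose and day. Klf9 with 20 mg/mL was at 726, 375 and 476 CPM at day 12, against 512, 449 and 475 CPM in control, and at 402, 536 and 465 CPM at day 6, against 405, 455 and 705 CPM in control. Over the 6 dose groups its log2 difference lay between -0.16 and 0.13, with an SE of 0.29. Sgk1 with 20 mg/mL was at 245, 187 and 175 CPM at day 12, against 245, 217 and 259 CPM in control, and at 249.7, 237 and 248 CPM at day 6, against 198, 238 and 194 CPM in control. Its log2 difference lay between -0.37 and 0.22 over the 6 dose groups, with an SE of 0.24. The 95% intervals at 20 mg/mL ran over -0.47 to 0.74 at day 12 and -0.76 to 0.45 at day 6 for Klf9, and over -0.74 to 0.24 at day 12 and -0.27 to 0.71 at day 6 for Sgk1.

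Several of these values changed without the libraries named above. Without the heart-rich library the log2 difference with 20 mg/mL at day 12 was 0.07 for Tsc22d3, which turned its sign, 0.33 for Klf9, -0.20 for Sgk1, -0.50 for Dusp1 and -1.21 for Ddit4. In the 16 libraries with more detected genes, the difference of Ddit4 at day 6 was -2.06 with 10 mg/mL and -0.90 with 5 mg/mL, against -1.18 and -0.23 in all libraries, and with 5 mg/mL at day 6 that of Zbtb16 was 2.71 and that of Fkbp5 1.38, against 1.70 and 0.79 in all libraries. These 4 values moved by more than 1.5 times in fold, and each rests on 1 exposed library. Those of Dusp1 (0.21), Tsc22d3 (0.23) and Klf9 (0.31) with 5 mg/mL at day 6 turned positive there, and that of Dusp1 with 10 mg/mL at day 6 was -0.31.

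Per1 had 17 reads in all 24 libraries together. Its highest level was 0.638 CPM, in replicate 3 of 20 mg/mL at day 6, and the highest control was at 0.422 CPM, so no difference was detectable with so few reads.

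With 20 mg/mL, 2 of the 7 tested genes (Zbtb16 and Fkbp5) lay wholly above control at day 12, where 3.56% of all 11421 genes did, and 2 (Ddit4 and Dusp1) wholly below, where 4.11% did. At day 6 the same pair lay above (4.08% of all genes) and 3 lay below, namely Ddit4, Dusp1 and Tsc22d3 (4.67% of all genes). With 10 mg/mL, Zbtb16 and Fkbp5 lay above at day 12 (3.91% of all genes) and at day 6 (2.99%), Ddit4 lay below at day 12 (4.55%) and Tsc22d3 at day 6 (3.23%). With 5 mg/mL none of the 7 genes lay wholly above or below control, where 3.85% and 3.94% of all genes did at day 12 and 4.19% and 4.13% at day 6. Since these contrasts chose the genes, nothing is read from the counts.

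As a slope linear in dose, the change per 10 mg/mL on the log2 scale was 2.13 (SE 0.44) at day 12 and 1.71 (SE 0.42) at day 6 for Zbtb16, and 0.90 (SE 0.18) at day 12 and 0.45 (SE 0.18) at day 6 for Fkbp5. For Ddit4 it was -0.52 (SE 0.18) at day 12 and -0.61 (SE 0.18) at day 6, and for Dusp1 -0.26 (SE 0.20) at day 12 and -0.62 (SE 0.20) at day 6. Tsc22d3 had -0.04 (SE 0.12) at day 12 and -0.27 (SE 0.12) at day 6. The slopes of Klf9 and Sgk1 lay between -0.07 and 0.09. The fitted slopes of Zbtb16 and Fkbp5 were positive and those of Ddit4 and Dusp1 negative at both days. The set was selected because Zbtb16 and Fkbp5 were higher with dose and Dusp1 lower, so nothing is read from these opposite signs. The interval of the Dusp1 slope at day 12 ran over -0.67 to 0.15 and so held both signs. The intervals of all these slopes are description too and settle no sign, since the genes were selected on dose.

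**Figure D2:**
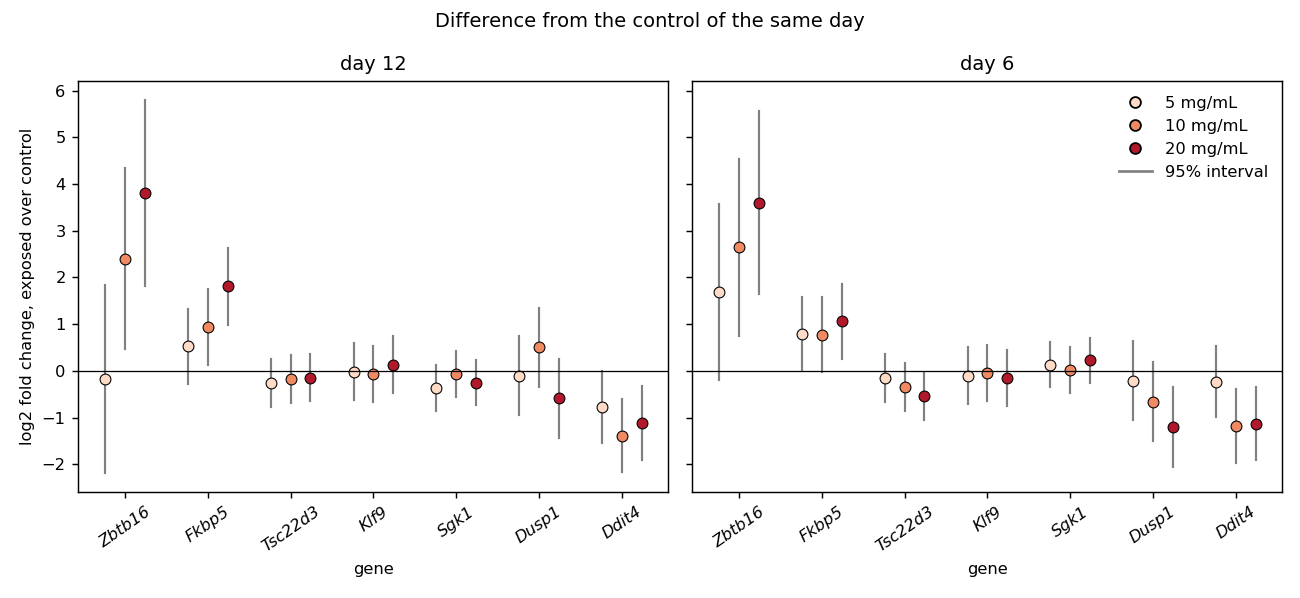
Log2 difference of each WCSC group from the control of its day for the 7 tested genes, with day 12 on the left and day 6 on the right. Points are fitted values and vertical lines their 95% intervals. Zbtb16 lies between 2.40 and 3.81 at 10 and 20 mg/mL and Ddit4 between -1.39 and -1.12, while Klf9 and Sgk1 lie near 0.

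The comparison of day 12 with day 6 was not used to choose the genes and was tested. In edgeR's quasi-likelihood test with Benjamini-Hochberg adjustment over 11421 genes, 0 of the 7 genes passed in any of the 4 contrasts of day 12 with day 6 (control, 5, 10 and 20 mg/mL), nor did any other gene (0% in each direction). DESeq2 and limma voom also called 0 of the 7. With the contrast of effects below there were 35 tests of the 7 genes, and 1 had an unadjusted p under 0.05, Zbtb16 with 5 mg/mL (3.1% of all genes lower at that p in this contrast, 3.82% higher), at 4.21 ± 3.43 CPM at day 12 and 17.6 ± 27.5 CPM at day 6 (SD, n = 3 each; log2 difference -2.03, SE 0.93, unadjusted p = 0.0396 and adjusted p = 0.714 in edgeR). That value also rested on replicate 3 of day 6, without which the difference was 1.32. None of the 7 genes had groups of the 2 days that did not overlap, where in the controls 4.72% of all genes lay wholly higher and 4.19% wholly lower at day 12, with 5 mg/mL 6.08% and 5.16%, with 10 mg/mL 4.68% and 4.19%, and with 20 mg/mL 4.74% and 4.94%.

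Between the controls of the 2 days the log2 differences of the 7 genes lay between -0.46, for Dusp1, and 0.20, for Sgk1. With 20 mg/mL they lay between -0.28, for Sgk1, and 0.40, for Fkbp5, with 6 of the 7 genes higher at day 12. The summed level of red blood cell markers ran over 10609 to 32432 CPM in the 12 libraries of day 12 and 10235 to 75156 CPM in the 12 of day 6. The highest of day 12 (20 mg/mL replicate 1) and the lowest of day 6 (20 mg/mL replicate 3) stood apart. All other libraries of day 6, at 27981 CPM or more, lay above all others of day 12, at 27415 CPM or less. The part of red blood cells in the comparison of days was not tested.

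The effect of 20 mg/mL at day 12 minus that at day 6 was tested in the same fit, and 0 of 7 genes passed (0% of all genes in each direction). At an unadjusted p under 0.05 there were also 0 of the 7, where 1.94% of all genes were higher and 1.86% lower. With 7 genes nothing is read from that count. DESeq2 and limma voom called 0 of the 7. It was 0.75 (SE 0.54, adjusted p in edgeR 1.00) for Fkbp5, 0.61 (SE 0.58) for Dusp1, 0.40 (SE 0.35) for Tsc22d3, 0.29 (SE 0.41) for Klf9, 0.20 (SE 1.26) for Zbtb16, 0.01 (SE 0.53) for Ddit4 and -0.47 (SE 0.34) for Sgk1. The 95% interval of the difference ran over -0.38 to 1.88 for Fkbp5 and -2.41 to 2.82 for Zbtb16, so the larger value of Fkbp5 at day 12 was not shown to differ from that at day 6.

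How the genes varied between libraries of the same group was also independent of their choice. For each gene the group mean was subtracted from log2 CPM, and the deviations of the 24 libraries were compared for each of the 21 pairs of the 7 genes, with a two-sided permutation test (100000 permutations of libraries within groups) adjusted over the 21 pairs. Of the pairs, 18 had a positive Pearson r and 6 passed. Tsc22d3 and Klf9 were the closest, with r = 0.867 and Spearman's rho = 0.806 (permutation adjusted p = 0.00535 and 0.00567). Among all 11420 other genes, 1 gene had a higher r with Tsc22d3 than Klf9 did, and 8 had a higher r with Klf9 than Tsc22d3 did.

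Klf9 with Dusp1 (r = 0.705, rho = 0.778) and Tsc22d3 with Dusp1 (r = 0.694, rho = 0.722) passed as well (permutation adjusted p of r = 0.00535 and 0.00672, of rho = 0.00567 and 0.0134). Of all other genes, 2.19% had a higher r with Klf9 than Dusp1 had, and 1.06% had a higher r with Tsc22d3 than Dusp1 had. At day 6, Klf9, Dusp1 and the number of detected genes were each higher in replicate 3 than in replicate 1 in 4 of 4 groups. With that number as a covariate, a setting added after seeing the data, r was 0.845 for Tsc22d3 with Klf9, 0.597 for Klf9 with Dusp1 and 0.658 for Tsc22d3 with Dusp1, and all 3 passed. Without the 2 libraries farthest from the median of the first gene, these 3 pairs kept r = 0.786, 0.661 and 0.593 (unadjusted permutation p = 0.00199, 0.0036 and 0.00553). TGACG stood in the windows of Dusp1 and Klf9 and in 1 of the 3 windows of Tsc22d3, and not in that of Fkbp5. Of all windows 18.2% held it, and 5480 of 27457 genes had it in a window, so nothing is read from it. Dusp1 with 20 mg/mL lay below control at both days, while Klf9 overlapped it.

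Fkbp5 was correlated with Tsc22d3 (r = 0.74, rho = 0.644), with Klf9 (r = 0.732, rho = 0.694) and with Zbtb16 (r = 0.671, rho = 0.64), with permutation adjusted p of r = 0.0493, 0.0353 and 0.0493 and of rho = 0.0416, 0.0256 and 0.0416. Of all other genes, 3.91% had a higher r with Zbtb16 than Fkbp5 had, and 0.998% a higher r with Fkbp5 than Zbtb16 had. With Tsc22d3 and with Klf9, 0.438% and 1.54% had a higher r than Fkbp5 had. With Fkbp5, 0.306% had a higher r than Tsc22d3 had and 0.359% a higher r than Klf9 had. These 3 pairs of Fkbp5 rested on few libraries. Leaving out 1 library at a time left 3 to 8 pairs past the threshold, and 3 in 8 of the 24 such tests. Without the 2 farthest ones, r was 0.452, 0.523 and 0.498 (unadjusted permutation p = 0.137, 0.0504 and 0.0969), and without the heart-rich library alone none of the 3 passed the adjusted threshold. Zbtb16 and Fkbp5 deviated to the same side of their group mean in 18 of 24 libraries. With the detected genes as a covariate, 4 of the 21 pairs passed, and in the 16 libraries with more genes 1 passed, Klf9 with Dusp1. Tsc22d3 with Klf9 had r = 0.851 in those 16 libraries and no longer passed.

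Ddit4 and Sgk1 stood outside this group. The r of Ddit4 with the other 6 genes lay between -0.129, with Zbtb16, and 0.346, with Dusp1, and the r of Sgk1 between -0.111, with Fkbp5, and 0.356, with Tsc22d3, and none of their 11 pairs passed (permutation adjusted p of r 0.288 or more).

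**Figure D3:**
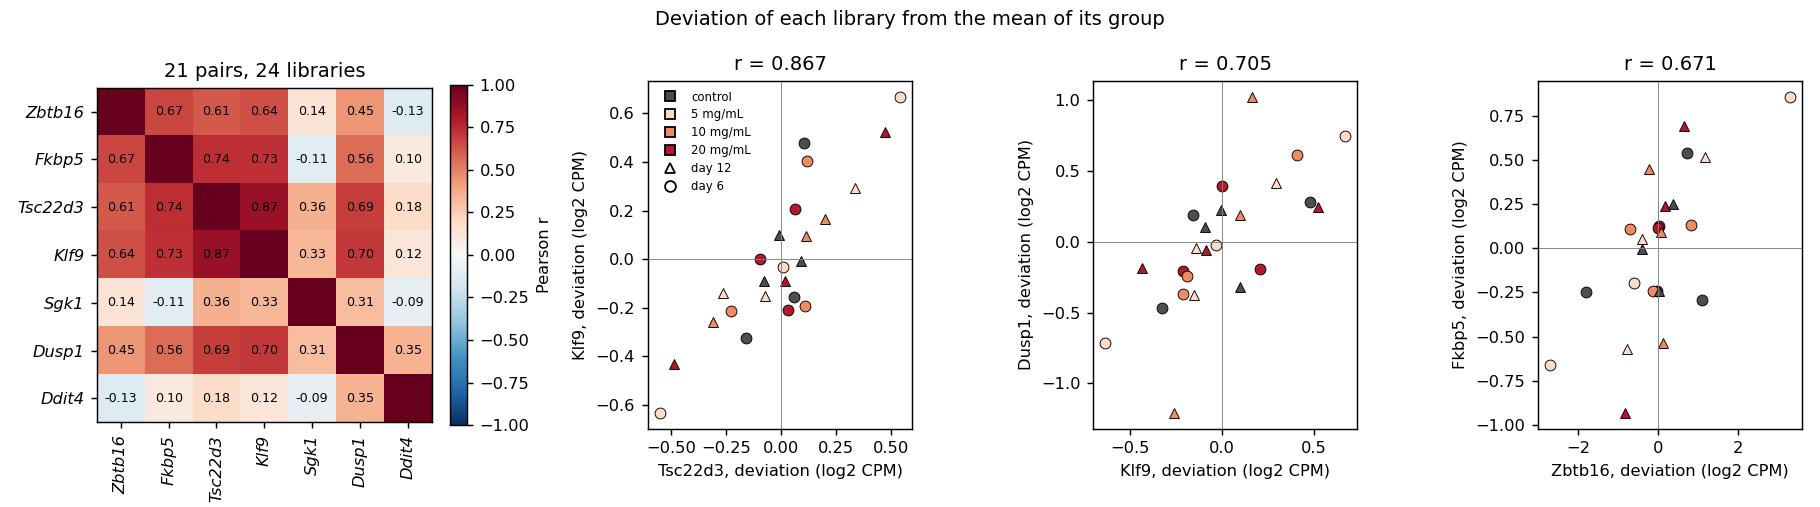
Pearson r of the deviations from group means over 24 libraries for the 21 pairs of genes (left), and the deviations themselves in log2 CPM for 3 of the pairs, with colour giving the dose, triangles day 12 and circles day 6. Tsc22d3 and Klf9 (r = 0.867) follow each other over the whole range, and Zbtb16 with Fkbp5 (r = 0.671) leans on the 2 libraries of 5 mg/mL at day 6 that lie far out on the Zbtb16 axis.

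The genes whose log2 CPM was most like a member's were taken over the 24 libraries among 10628 genes, group differences included, as a description. For Zbtb16 the first was Fkbp5 itself (r = 0.784), followed by Vwa1 (0.783), Rgs2 (0.665), Itpripl2 (0.625) and Slc25a30 (0.594). For Fkbp5 they were Zbtb16, Fam46b (0.687), Angptl4 (0.683), Rapgef5 (0.624) and Pfkfb1 (0.596). For Dusp1 they were Zfp36 (0.804), which encodes a protein that degrades AU-rich mRNAs, Tbxa2r (0.796), Dclk2 (0.795), the immediate-early gene Jun (0.792) and Stap2 (0.785). All these libraries share the 8 group means, so the values say nothing of shared control.

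The other genes of the pathway came from 7 lists with 122 genes, of which 117 were measured and 103 tested. In edgeR's quasi-likelihood test 0 of the 103 passed in any of the 6 contrasts of a dose with its control, as 0% of all genes did in each direction. At an unadjusted p under 0.05, 8 were higher and 3 lower with 20 mg/mL at day 12, or 7.77% and 2.91% of the 103, against 2.35% and 1.34% of all genes, and 4 were higher and 7 lower at day 6, or 3.88% and 6.8%, against 2.08% and 1.99%. With 20 mg/mL, DESeq2 called 0 of the listed genes at day 12 and 1, Cebpd, at day 6, and so did limma voom.

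Of 27 tested genes on the list of other glucocorticoid-induced genes, 16 were higher and 11 lower with 20 mg/mL at day 12 (median log2 difference 0.12, against 0.01 over all genes), and 13 were higher and 14 lower at day 6 (median -0.03, against -0.00 over all genes). Among these, Angptl4, which encodes an inhibitor of lipoprotein lipase, was at 5.15, 5.94 and 16.8 CPM with 20 mg/mL at day 12, against 3.23, 2.71 and 0.971 CPM in control (log2 difference 2.04, SE 0.63, and 1.28 without replicate 3, the library at 16.8 CPM). At day 6 it was at 2.84, 6.88 and 4.98 CPM with 20 mg/mL, against 1.66, 4.20 and 3.10 CPM in control (0.73, SE 0.60). Klf15, which encodes a metabolic transcription factor, had differences of 0.87 (SE 0.44) at day 12 and -0.80 (SE 0.44) at day 6. Pdk4, a kinase of the pyruvate dehydrogenase complex that hormone and fasting induce, was near 0 reads and not tested.

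Cebpd, which encodes a C/EBP factor, was lower with dose. It was at 142, 106 and 135 CPM with 20 mg/mL at day 12, against 129, 255 and 221 CPM in control, and at 84.5, 59.9 and 84.1 CPM with 20 mg/mL at day 6, against 201, 285 and 243 CPM in control. The groups overlapped at day 12 and not at day 6. In edgeR its slope per 10 mg/mL at day 6 was -0.91 (SE 0.14, adjusted p = 0.0126, 1 called gene of 11421, or 0.00876% lower and 0% higher), and its mean slope of both days was -0.64 (SE 0.10, adjusted p = 0.0105 in edgeR), in a contrast that called 0.0175% of all genes lower and 0.00876% higher. The difference at 20 mg/mL missed the threshold in edgeR (day 12 -0.66, SE 0.27, adjusted p = 0.998, and day 6 -1.68, SE 0.28, adjusted p = 0.0524). The slope at day 6 lost its call without any 1 of the 3 libraries of 20 mg/mL or without control replicate 2 (adjusted p in edgeR of 0.0777 to 0.23), and when the groups of day 6 alone were fitted (0.212), while the mean slope kept it in all 24 fits without 1 library.

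Nfkbia, which encodes the inhibitor that holds NF-kappaB in the cytoplasm, was at 1067, 1062 and 1119 CPM with 20 mg/mL at day 12, against 1628, 1572 and 1964 CPM in control, and at 726, 979 and 701 CPM at day 6, against 1635, 1755 and 1989.9 CPM in control. The groups overlapped at neither day, and the log2 differences of -0.67 (SE 0.28) at day 12 and -1.16 (SE 0.28) at day 6 did not pass in edgeR (adjusted p = 0.998 and 0.7). Cebpd, Nfkbia, Dusp1 and Ddit4, 4 genes that glucocorticoids can induce, had negative log2 differences with 20 mg/mL at both days. Others were negative at both days too, among them Tsc22d3 (-0.14 at day 12 and -0.55 at day 6) and Zfp36 (-0.53 and -0.92). The 4 genes do not stand for all induced genes, since Dusp1 was selected for its fall and Cebpd and Nfkbia were named with earlier results known. Angptl4 (2.04 at day 12 and 0.73 at day 6) was positive at both days, as were Rgs2 (0.12 and 1.05), Zbtb16 and Fkbp5. The counts of higher and lower genes on the whole list are given above.

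**Figure D4:**
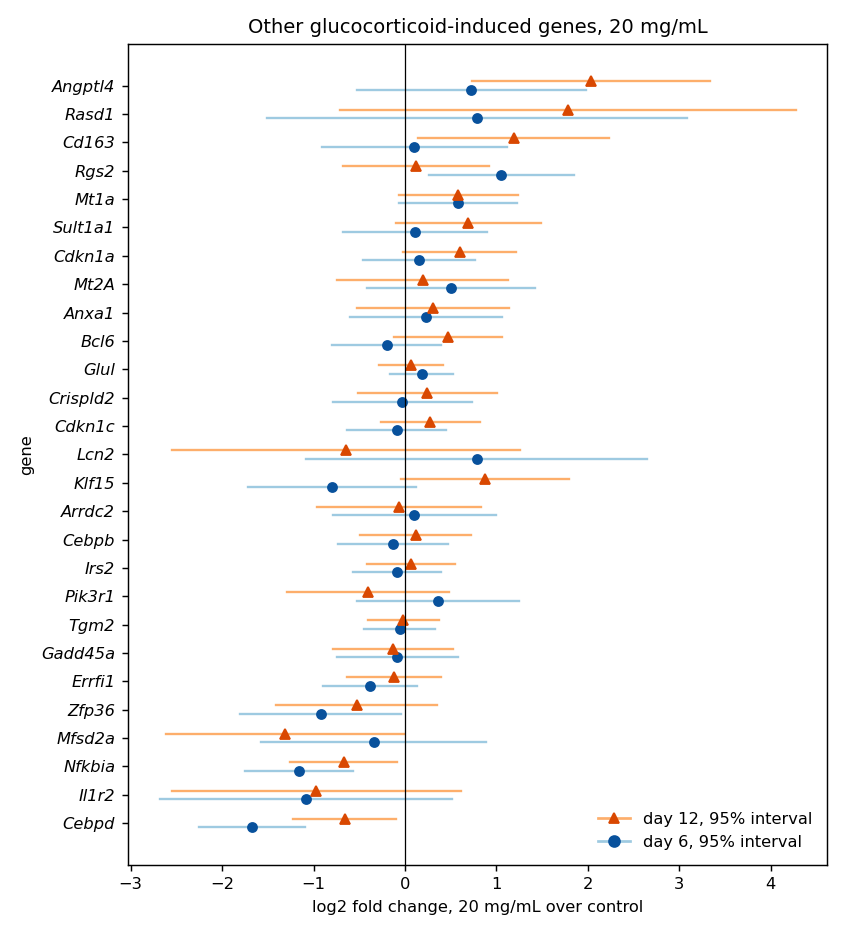
Log2 difference of 20 mg/mL from control for the 27 tested genes of the list of other glucocorticoid-induced genes, with triangles for day 12 and circles for day 6, and lines for 95% intervals. The genes are ordered by the mean of both days, with Angptl4 (2.04 at day 12) at the top and Cebpd (-1.68 at day 6) at the bottom.

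No gene of the receptor, its ligand enzymes or its chaperones passed the test. Nr3c1, the receptor gene itself, was at 262, 206 and 253 CPM with 20 mg/mL at day 12, against 288, 234 and 261 CPM in control, and at 283, 246 and 159.9 CPM at day 6, against 229, 231 and 219 CPM in control (log2 differences -0.12 and 0.02, SE 0.18 each). Hsd11b1, whose enzyme regenerates active hormone from its inert form, was at 209.6, 85.0 and 266 CPM with 20 mg/mL at day 12, against 124, 200.4 and 193 CPM in control (0.12, SE 0.34), and at 273, 177 and 124 CPM at day 6, against 256, 154 and 150.3 CPM in control (0.03, SE 0.34). Fkbp4, the paralogue that acts opposite to Fkbp5 on the receptor, had differences of -0.13 (SE 0.19) at day 12 and 0.09 (SE 0.19) at day 6, and the chaperone gene Hsp90aa1 0.25 (SE 0.39) at day 12 and 0.06 (SE 0.39) at day 6. Stip1, whose protein links chaperones, had 0.02 (SE 0.20) at day 12 and 0.40 (SE 0.20) at day 6. The mineralocorticoid receptor gene Nr3c2 had 0.67 (SE 0.47) at day 12 and 0.30 (SE 0.47) at day 6. Of the 17 tested genes of this list, 8 were higher and 9 lower at day 12, 13 higher and 4 lower at day 6, and 0 had an unadjusted p under 0.05 at either day.

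Of the clock genes, 14 were tested, with 6 higher and 8 lower at each day. Per2, the paralogue of Per1, was at 42.0, 45.1 and 23.2 CPM with 20 mg/mL at day 12, against 45.9, 42.6 and 39.6 CPM in control (log2 difference -0.22, SE 0.34), and at 12.8, 19.4 and 22.5 CPM at day 6, against 44.4, 50.4 and 24.5 CPM in control (-1.12, SE 0.35, adjusted p in edgeR 1.00). The clock repressor gene Cry2 had -0.31 (SE 0.27) at day 12 and -0.71 (SE 0.27) at day 6, and Nr1d1, which encodes REV-ERB alpha, 0.85 (SE 0.51) at day 12 and 0.47 (SE 0.51) at day 6. The output gene Dbp had -0.68 (SE 0.35) at day 12 and 0.45 (SE 0.34) at day 6, and Arntl -0.18 (SE 0.32) at day 12 and -0.12 (SE 0.32) at day 6. The hour of collection is not stated, so its part in these values was not tested.

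Of 7 other MAP kinase phosphatases tested, 5 were higher and 2 lower than control with 20 mg/mL at each day, where Dusp1 was lower. Dusp6, which acts on ERK, had differences of 0.02 (SE 0.25) at day 12 and -0.78 (SE 0.25) at day 6 with 20 mg/mL, Dusp2 0.26 (SE 0.49) at day 12 and 0.60 (SE 0.48) at day 6, and Dusp10 0.55 (SE 0.54) at day 12 and 0.41 (SE 0.54) at day 6. Of 16 tested immediate-early genes, 10 were higher and 6 lower at day 12, and 11 higher and 5 lower at day 6. Jun had -0.55 (SE 0.27) at day 12 and -0.36 (SE 0.27) at day 6, and Junb 0.89 (SE 0.36) at day 12 and 0.16 (SE 0.36) at day 6. Fos had 0.59 (SE 0.72) at day 12 and 0.98 (SE 0.70) at day 6, Egr1 -0.73 (SE 1.65) at day 12 and 1.04 (SE 1.63) at day 6, and Klf4 -0.01 (SE 0.22) at day 12 and -0.59 (SE 0.22) at day 6. With 10 mg/mL at day 12, 15 of the 16 immediate-early genes were higher (median log2 difference 0.85) and 6 had an unadjusted p under 0.05, or 37.5%, against 1.03% of all genes higher and 1.06% lower at that p, while 0 passed the adjusted threshold. That was the highest such count of the 6 dose contrasts. At that p, 1 of the 16 was higher with 20 mg/mL at day 12 (2.35% of all genes) and 0 at day 6 (2.08%). With 10 mg/mL at day 6 it was 1 (1.46%), and with 5 mg/mL 1 at day 12 (0.604%) and 2 at day 6 (2.53%). With 20 mg/mL at day 6, 1 was lower (1.99%), and 0 were lower in the other dose contrasts. Dusp1, also an immediate-early gene, had its highest group mean with 10 mg/mL at day 12, and its difference of 0.50 was -0.11 without replicate 3. A link between Dusp1 and these genes was not tested.

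Of the 9 tested hypoxia-induced genes, to which Ddit4 also belongs by function, 7 were higher and 2 lower at each day. Their median differences were 0.35 at day 12 and 0.19 at day 6. At an unadjusted p under 0.05 in edgeR, 2 of the 9 were higher at day 12 (22.2%, against 2.35% of all genes). At day 6, 0 were higher (against 2.08% of all genes), and 0 were lower at either day. Ddit4 was lower with 20 mg/mL at both days, and the part of hypoxia was not tested. Slc2a1, the glucose transporter gene, had 0.83 (SE 0.32) at day 12 and 0.28 (SE 0.31) at day 6, the mitophagy gene Bnip3 0.35 (SE 0.26) at day 12 and 0.40 (SE 0.25) at day 6, and Vegfa -0.41 (SE 0.31) at each day.

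Of 13 tested genes that glucocorticoids repress, 7 had a positive difference with 20 mg/mL at day 12 (median log2 difference 0.10) and 10 at day 6 (median 0.36), against 51.3% and 49.6% of all genes, and 0 passed in edgeR. Ccl2, a monocyte chemokine gene, had 1.25 (SE 0.79) at day 12 and 2.11 (SE 0.82) at day 6, where it was 0.91 without replicate 3 of 20 mg/mL, and Tnf 3.01 (SE 1.16) at day 12 and 0.31 (SE 0.91) at day 6, at levels of at most 3.05 CPM with 20 mg/mL. The day 12 value of Tnf was 4.004 without control replicate 1 and 2.37 without control replicate 3. Ccl20 had 4.27 at day 12 (95% interval 1.47 to 7.07), which came from the heart-rich library, and -0.04 without it.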

How the data were processed

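Total RNA of rat lung had been made into 24 libraries (8 groups of 3), per the labels with a Lexogen QuantSeq kit, which reads the 3′ end of polyadenylated RNA. The deposited values are raw counts of reads per gene symbol, which the authors made with Bowtie2 and bedtools on rn6, per the submitters' processing notes. The versions, annotation and strand setting are not stated there, so reads of overlapping antisense genes cannot be told apart. Of 17048 lines, 167 repeated a symbol (0.772% of counts), and the line with most reads was kept. Counts were scaled by TMM and fitted in 1 model of all 8 groups with edgeR 4.0.16 (R 4.3.3, quasi-likelihood, filterByExpr, 11421 genes, 16 residual degrees of freedom), with Benjamini-Hochberg adjustment and a threshold of 0.05. Alternatives used DESeq2 1.42.0, limma 3.58.1 voom and sva 3.50.0. Deviations used log2 CPM with a prior count of 2. The fits were tested on simulated data. The 8 genes, the 7 other lists and the rule for named genes were chosen with earlier results of these data known. That rule took 12 genes by name, those past the threshold and, per list, the 3 with the smallest p in the mean of both 20 mg/mL contrasts. One gene that the rule names is not reported here. Intervals are 95%. The labels do not say that a replicate number marks a shared batch, and the main model has no term for it.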

Additional observations from a re-analysis of the deposited data

How the results depend on the processing

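Of 2238 values under other settings, 2125 were labelled the same, 11 reversed, 42 moved, 52 lost a call and 8 gained one. For the members' dose differences and slopes, which had no test, the same meant a change within a limit set by the SD within groups. There a turned sign counted as reversed only where the main value exceeded its SE. Klf9 with 20 mg/mL at day 6 (-0.16), for example, was 0.12 without control replicate 3 and counted as the same. No member passed in any of 5 contrasts with day 12 against day 6, under 11 other settings or without any 1 of the 24 libraries. At 20 mg/mL the log2 difference of Zbtb16 stayed within 3.77 to 4.80 at day 12 and 3.31 to 4.22 at day 6 under 10 settings. These settings left out no library of the groups compared, and 1 of them fitted those groups alone. With 2 surrogate variables its difference with 10 mg/mL at day 6 (2.65) was 3.97. The cause of the reversals was not tested. Zbtb16 with 5 mg/mL at day 6 (1.70) was -1.53 in limma voom with sample quality weights, 2.71 without the 8 libraries with few genes and -1.66 to 2.29 with 1 library left out. Its difference of day 12 from day 6 at 5 mg/mL (-2.03) was 0.57 in limma voom, -3.56 without the 8 libraries and -2.94 to 1.32 with 1 library left out. Its effect of 20 mg/mL at day 12 minus day 6 (0.20) was -0.13 with the detected genes as a covariate, 0.87 without the 8 libraries and -0.33 to 0.71 with 1 library left out. Dusp1 with 10 mg/mL at day 12 (0.50) ran over -0.11 to 0.90, and Ccl20 with 20 mg/mL at day 12 (4.27) over -0.043 to 4.91. Ccl2 with 20 mg/mL at day 6 (2.11) was 0.54 in limma voom.

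The number of the 7 members above control with 5 mg/mL was 1 at day 12 and 3 at day 6. At day 12 it was 3 without the 8 libraries with few genes, 2 with 2 surrogate variables and 1 to 4 with 1 library left out. At day 6 it was 6, 6 and 2 to 7 under the same settings. The number with a positive mean slope (4) was 2 to 4. With 20 mg/mL at day 6, 0 listed genes passed in edgeR, and 1, Cebpd, under RLE scaling, without the filter, in DESeq2, in limma voom, with the replicate block, without the 8 libraries, with the covariate and with surrogate variables. With 10 mg/mL at day 6, limma voom called 1. Of 6 pairs, 1 passed without the 8 libraries and 3 to 8 with 1 library left out.

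Same-numbered libraries of different groups of a day deviated with r of -0.185 to 0.591 (median 0.0628, 14 of 36 over 0.1), against -0.524 to 0.378 for libraries with different numbers (median -0.0661, 16 of 72 over 0.1). At day 12 the medians were 0.0215 for the same and -0.019 for different numbers, and at day 6 they were 0.173 and -0.104. Not every same-numbered pair was over 0.1 and no label ties the numbers, so they were not taken as pairs. With a replicate block the Zbtb16 difference of days at 5 mg/mL was 0.029, its 20 mg/mL effect at day 12 minus day 6 was -0.26, the Zbtb16 difference with 5 mg/mL at day 6 was 0.97, and 4 pairs passed, with r = 0.887 for Tsc22d3 with Klf9, 0.52 for Tsc22d3 with Dusp1, 0.455 for Klf9 with Dusp1 and 0.626 for Zbtb16 with Fkbp5, without Fkbp5 with Tsc22d3 (0.61) and with Klf9 (0.54). Per1 had too few reads for a test, for a reason that was not tested, and 3 libraries a group limit every contrast.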
